A study of Mus musculus with 8 samples.

Results

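The genes described here are the numbered zinc finger genes of the mouse whose symbols are Zfp followed by a number, as read in liver after an adenovirus carrying LeXis. A symbol was taken from the name column of the array files, and the genes were chosen by the background flag of the scanner files: at least 1 probe of the gene had to be flagged well above background on each of the 8 arrays. By that rule 287 of the 332 such names on the array were detected, among 23925 genes tested. Of the other 45 names, 12 were tested but had no probe detected on every array, and 33 had no probe bright enough to be tested. The 332 names were carried by 523 probes, of which 403 were detected on all 8 arrays. The rule used detection and not the contrast between the groups, although the genes were proposed with results of this contrast known.

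Liver RNA had been hybridised in 1 colour to Agilent expression arrays, 4 for a group labelled AdLeXis and 4 for a group labelled AdGFP. LeXis is a long non-coding RNA transcribed next to Abca1, the cholesterol efflux pump, and the contrast of the groups asks what its overexpression does to the liver transcriptome. All mice were bl6 animals of 12 weeks fed chow, and the liver RNA dates from day 6. The animals of both groups thus received an adenovirus, and AdGFP carries green fluorescent protein in place of LeXis. The titles, the treatment tag and the design name these viruses, whereas a free-text treatment note names pblockITshRaly and pblockITcontrol, so the note and the tag differ. The labels do not say that each array came from a separate animal, so the p-values measure the spread between these 4 and 4 arrays, which may be partly technical.

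The 3 probes at the LeXis locus read 9.05 to 10.70 on AdLeXis arrays and 0.46 to 4.12 on AdGFP arrays on the scaled log2 scale. Before scaling, the 75th percentile of the intensity was 381 to 448 on AdLeXis arrays and 220 to 297 on AdGFP arrays, and 62.6% to 67.7% of spots on AdLeXis arrays against 58.9% to 62.5% on AdGFP arrays were well above background. All arrays lay on 1 slide, with the AdLeXis arrays in slide row 2 and the AdGFP arrays in slide row 1, so slide row and virus cannot be told apart. In both groups replicates 1 to 4 lay in slide columns 1 to 4. Hepatocyte markers were bright on all arrays, and 9 of 13 fell, with a mean of 16.78 to 16.97 on AdLeXis arrays and 17.23 to 17.35 on AdGFP arrays. Of 15 T and NK cell markers 13 fell (means of 8.61 to 8.79 on AdLeXis arrays against 9.48 to 9.60 on AdGFP arrays), as did 5 of 12 Kupffer cell and macrophage markers (11.57 to 11.87 on AdLeXis arrays against 11.99 to 12.44 on AdGFP arrays) and 3 of 10 stellate cell and fibroblast markers (9.31 to 9.57 on AdLeXis arrays against 9.54 to 9.87 on AdGFP arrays). None of 10 endothelial markers was called, and of 19 cell cycle genes 15 rose (means of 10.05 to 10.41 on AdLeXis arrays against 9.26 to 9.40 on AdGFP arrays). The part of these shifts in the results on zinc finger genes was not tested, and in whole liver fewer cells of a type cannot be told apart from less RNA per cell.

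Most Zfp genes encode proteins with tandem C2H2 zinc fingers, small zinc-bound folds that each read a few bases of DNA. A large share of them carry a KRAB domain, which recruits the corepressor Trim28 (KAP1) and with it the histone methyltransferase Setdb1 and heterochromatin proteins, and they are best known for silencing endogenous retroviruses and other repeats. KRAB zinc finger genes lie in clusters that expanded by tandem duplication, and their transcripts are generally scarce. Some Zfp symbols belong to other classes, such as the CCCH-type RNA-binding protein encoded by Zfp36.

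A value below, unless said otherwise, is the log2 of the processed signal after each array was set to a common 75th percentile. Differences are AdLeXis minus AdGFP on that scale, so 1 is a doubling. Levels of different probes are not comparable with one another. Adjusted p-values come from limma over all 23925 genes, with a threshold of 0.05.

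Of the 287 genes, 44 (15.3%) rose and 9 (3.14%) fell in AdLeXis liver, and 234 did not pass the test. Over all genes tested 8.75% rose and 8.79% fell, 17.5% in either direction. The median difference was 0.15 for the Zfp genes, with 203 of 287 (70.7%) above 0, against a median of -0.0021 and 49.6% above 0 over all genes. At an unadjusted p under 0.05 the numbers were 81 higher (28.2%) and 25 lower (8.71%), against 16.1% and 16% of all genes. The differences were small as a rule: 3 called Zfp genes (1.05%) at least doubled and 0 at least halved, against 1.98% and 1.05% of all genes. None at least doubled once background correction and scaling were changed together, as given below. The 4 AdLeXis arrays all lay above the 4 AdGFP arrays for 64 Zfp genes and all below for 14, against 12.4% and 12.3% of all genes. Averaged over the 287 genes, each AdLeXis array stood at 7.85 to 7.90 and each AdGFP array at 7.74 to 7.79.

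**Figure D1:**
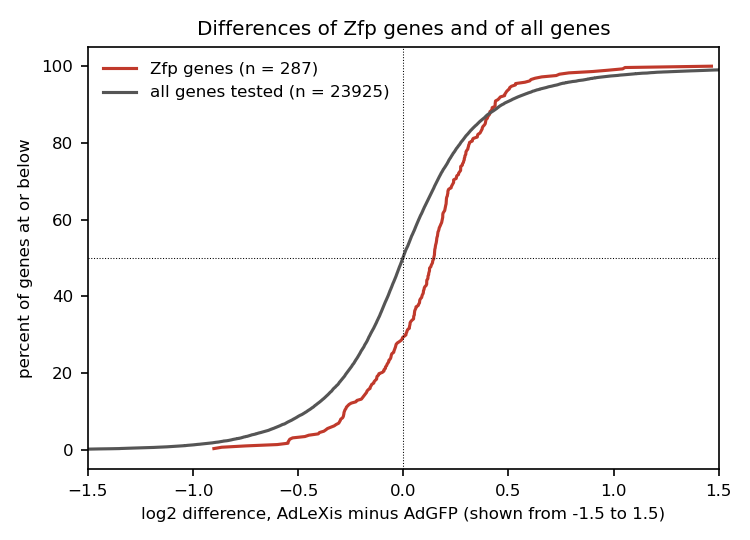
Percent of genes at or below each log2 difference (AdLeXis minus AdGFP), for the 287 detected Zfp genes and for all 23925 genes tested. The median of the Zfp genes lies at 0.15 and that of all genes at -0.0021.

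A set of 12307 genes lay within the Zfp genes' own range of signal (their 10th to 90th percentile). Of these 9.89% rose and 10.0% fell (19.9% in either direction), with a median of -0.011. Of the 21145 genes well above background on all 8 arrays, 8.82% rose, 9.69% fell and 47.8% lay above 0, with a median of -0.014. Both sets include Zfp genes. Beside them, 15.3% of all 287 Zfp genes rose and 3.14% fell. The counts depended on how arrays were put on a common scale. Setting each array to its median in place of its 75th percentile moved the median of all genes to -0.085 and that of the Zfp genes to 0.062, and left 16 Zfp genes higher and 14 lower, so that 53.3% of their calls were higher, against 83.0% in the main setting. Over all genes, 30.1% of calls were higher with that scaling and 49.9% in the main setting. Quantile scaling gave 43 higher and 7 lower, and cyclic loess 47 and 7. The difference between the median of the Zfp genes and the median of all genes was 0.15 in the main setting. Array-median scaling shifts all genes of an array alike, so its value of 0.15 was fixed in advance and is no separate check. The difference was 0.14 with quantile or loess scaling, and 0.075 with normexp background correction followed by quantile scaling (here called normexp with quantile scaling). That setting adds an offset of 50 to every corrected intensity, which by itself shrinks the differences of dim probes. It called 42 Zfp genes higher and 11 lower, and 25 of the 44 rises and 4 of the 9 falls given here were among them. Over the 44 rises the median difference was 0.32 with it, against 0.46 in the main setting, and 26 of the 44 were more than 1.5 times smaller.

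**Figure D2:**
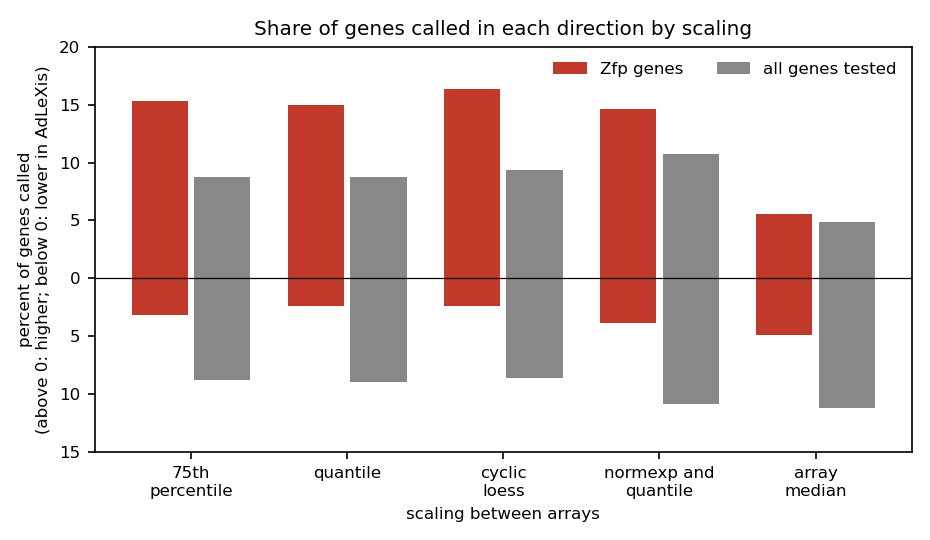
Percent of genes called higher (above 0) and lower (below 0) in AdLeXis under 5 ways of processing arrays (75th percentile, quantile, cyclic loess, normexp with quantile, and array median), for the 287 Zfp genes and for all 23925 genes tested. With the 75th percentile 15.3% of Zfp genes were higher and 3.14% lower; with the array median 5.57% were higher and 4.88% lower.

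The largest rise was that of Zfp473, whose human counterpart (ZNF473, ZFP100) is a component of the machinery that processes the 3′ ends of replication-dependent histone mRNAs. Zfp473 read 5.64, 5.09, 5.25 and 5.75 on AdLeXis arrays, against 3.72, 4.08, 3.99 and 4.09 on AdGFP arrays. The groups lay more than 1 unit apart at their nearest arrays, and the difference was 1.47 ± 0.17 (SE), adjusted p = 0.00145. Its probe lies at chr7:51986904-51986963 on the minus strand of build mm9, and is printed because it gives the largest rise:
Zfp473 probe: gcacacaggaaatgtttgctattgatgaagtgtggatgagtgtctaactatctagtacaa

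The other kept probe of Zfp473, detected on 7 arrays, rose by 0.86 ± 0.12 (SE), adjusted p = 0.00452 over all probes kept, and the mean over both probes was 1.16. Under normexp with quantile scaling Zfp473 stood at 0.42 (adjusted p = 0.00601), and the largest rise was that of Zfp629 (0.84), so both the size and the rank of Zfp473 depended on that setting.

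Zfp13 and Zfp273 were the other 2 genes that at least doubled. Zfp13 on chromosome 17 read 7.30, 6.78, 6.51 and 6.81 on AdLeXis arrays, against 5.69, 5.65, 5.96 and 5.88 on AdGFP arrays. AdLeXis replicate 1 was the highest array, and the other 3 AdLeXis arrays also lay above all AdGFP arrays (difference 1.05 ± 0.17 (SE), adjusted p = 0.00508). Zfp273, in the KRAB zinc finger cluster of chromosome 13, read 6.59, 6.66, 6.75 and 6.75 on AdLeXis arrays, against 5.31, 6.14, 6.06 and 5.07 on AdGFP arrays. Its AdGFP arrays fell into a higher pair and a lower pair, and the difference was 1.04 ± 0.24 (SE), adjusted p = 0.0204; it missed the threshold without AdLeXis replicate 4 (adjusted p = 0.0561) or without AdGFP replicate 1 (0.0546).

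Zfp846 on chromosome 9 read 8.32, 8.55, 8.71 and 8.87 on AdLeXis arrays, against 7.48, 7.77, 7.56 and 7.74 on AdGFP arrays. Zfp704 on chromosome 3, a gene first described as induced by glucocorticoid, read 6.43, 6.56, 6.51 and 6.89 on AdLeXis arrays, against 5.82, 5.74, 5.73 and 5.49 on AdGFP arrays. Both were separated by more than 0.5 between the nearest arrays of the groups, with differences of 0.97 ± 0.13 (SE), adjusted p = 0.00297 for Zfp846 and 0.90 ± 0.12 (SE), adjusted p = 0.00294 for Zfp704. Zfp296, known from mouse embryonic stem cells and reprogramming, read 7.48, 7.71, 7.62 and 7.69 on AdLeXis arrays, against 6.82, 6.92, 6.82 and 6.79 on AdGFP arrays. Its replicates were tight, the groups lay far apart, and the difference was 0.79 ± 0.082 (SE), adjusted p = 0.00117. Zfp446 read 8.79, 8.95, 8.71 and 8.89 on AdLeXis arrays, against 8.01, 7.91, 8.17 and 8.29 on AdGFP arrays, with a difference of 0.74 ± 0.11 (SE), adjusted p = 0.00339.

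The other 5 of the 12 largest rises were smaller. Zfp599 read 5.02, 5.14, 4.64 and 5.14 on AdLeXis arrays, against 4.36, 3.87, 4.35 and 4.46 on AdGFP arrays. Zfp647 read 5.58, 6.17, 5.70 and 5.88 on AdLeXis arrays, against 5.19, 5.26, 5.02 and 5.22 on AdGFP arrays. AdLeXis replicate 3 was the lowest AdLeXis array for Zfp599 and AdLeXis replicate 1 for Zfp647, yet no array overlapped the other group. The differences were 0.73 ± 0.16 (SE), adjusted p = 0.0195 for Zfp599 and 0.66 ± 0.13 (SE), adjusted p = 0.0133 for Zfp647. Zfp629 on chromosome 7 differed by 0.61 ± 0.13 (SE), adjusted p = 0.0141, Zfp189 on chromosome 4 by 0.60 ± 0.10 (SE), adjusted p = 0.00661, and Zfp41 on chromosome 15 by 0.58 ± 0.098 (SE), adjusted p = 0.00678. The remaining 32 genes that rose had differences of 0.27 to 0.53, and of all 44 only Zfp426 had groups that overlapped. Of the 12 largest rises, 10 passed the test under each of the 19 alternative settings tried; Zfp273 and Zfp599 were the exceptions. The sizes of the 12 depended on the setting. Under normexp with quantile scaling 7 of the 12 were more than 1.5 times smaller, at 0.62 for Zfp13, 0.62 for Zfp273, 0.50 for Zfp704, 0.36 for Zfp647, 0.29 for Zfp41 and 0.19 for Zfp599, besides Zfp473. The offset of that setting shrinks dim probes by design, and its part in these smaller sizes was not tested. The call of Zfp599 was lost without AdLeXis replicate 2 (adjusted p = 0.054), without AdLeXis replicate 4 (0.0574) and under normexp with quantile scaling (0.0676).

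**Figure D3:**
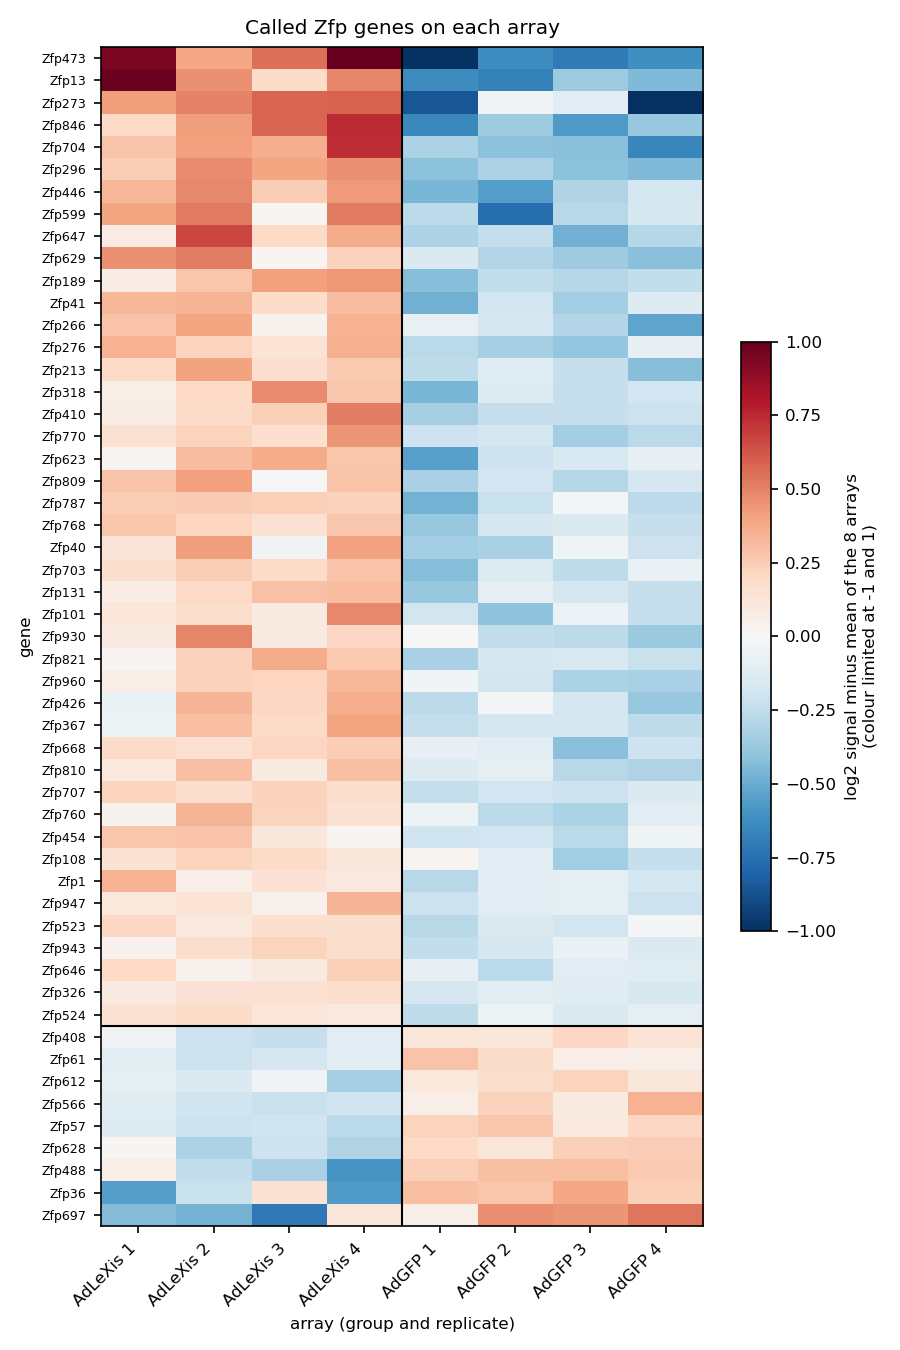
Log2 signal of the 53 called Zfp genes on the 4 AdLeXis arrays (left) and the 4 AdGFP arrays (right), each gene centred on its mean over the 8 arrays, with the colour limited at -1 and 1. The 44 genes above the line rose, from Zfp473 (1.47) down to a difference of 0.27, and the 9 below it fell, to -0.75 for Zfp697.

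Zfp36 and Zfp57 were among the 9 genes that fell. Zfp36 encodes tristetraprolin, which binds AU-rich elements and speeds the decay of cytokine mRNAs. Zfp36 read 4.54, 4.86, 5.23 and 4.52 on AdLeXis arrays, against 5.39, 5.36, 5.47 and 5.33 on AdGFP arrays. The AdGFP arrays were tight and the AdLeXis arrays spread below them, with a difference of -0.60 ± 0.16 (SE), adjusted p = 0.0342; leaving out any one array except AdLeXis replicate 3 ended the call. Under normexp with quantile scaling it was -0.052 (adjusted p = 0.63).

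Zfp57 encodes the KRAB zinc finger protein that keeps DNA methylation at imprinting control regions through the early embryo. Zfp57 read 7.05, 6.97, 6.98 and 6.91 on AdLeXis arrays, against 7.40, 7.45, 7.28 and 7.39 on AdGFP arrays. All 4 AdLeXis arrays stood below the 4 AdGFP arrays, and the difference was -0.40 ± 0.075 (SE), adjusted p = 0.0101. Of the 9 genes that fell, it was the 1 whose call held under each of the 19 alternatives.

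Zfp488, which takes part in oligodendrocyte differentiation, read 10.08, 9.77, 9.69 and 9.43 on AdLeXis arrays, against 10.25, 10.32, 10.32 and 10.28 on AdGFP arrays. AdLeXis replicate 1 was closest to the AdGFP arrays, which themselves lay close together, and the difference was -0.55 ± 0.13 (SE), adjusted p = 0.025. Zfp566 on chromosome 7 fell by 0.37 ± 0.088 (SE), with groups that did not overlap. Zfp612 on chromosome 8 fell by 0.31 ± 0.087 (SE) and Zfp61 on chromosome 7 fell by 0.30 ± 0.081 (SE). Zfp697 lay near the limit of detection, and AdGFP replicate 1 (3.88) lay under AdLeXis replicate 4 (3.93), so its groups overlapped although it passed the test (-0.75 ± 0.19 (SE), adjusted p = 0.0276). Leaving out 1 array ended the call of Zfp488, Zfp566, Zfp612, Zfp61 and Zfp697 for at least 1 choice of array, and normexp with quantile scaling ended those of Zfp566 (-0.056, adjusted p = 0.796) and Zfp61 (-0.17, adjusted p = 0.0719). Zfp697 kept its call there at -0.21 (adjusted p = 0.047).

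The other 2 genes that fell were Zfp628, described with its 2 probes below, and Zfp408, whose probe holds sequence found in probes of other genes. With 1 array left out, Zfp408 kept its call only without AdLeXis replicate 1. Zfp628 kept its call only without AdLeXis replicate 1 or without AdGFP replicate 2. Without AdLeXis replicate 2, for example, limma adjusted p was 0.0942 for Zfp408 and 0.0617 for Zfp628. Cyclic loess scaling (limma adjusted p = 0.192 for Zfp408 and 0.123 for Zfp628) and normexp with quantile scaling (0.883 and 0.323) also ended both calls. The probe of Zfp408 (human ZNF408 is linked to retinal vessel disease) shared a run of 32 bases with the probe of Medag, a gene on chromosome 5 known from adipocyte differentiation, and shared at least 20 bases with 12 probes of other names in all. Both probes are printed 5′ to 3′, with their mm9 positions and with the shared run in capitals:
Zfp408 (chr2:91483850-91483909, minus strand): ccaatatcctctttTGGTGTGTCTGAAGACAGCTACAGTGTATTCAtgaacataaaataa
Medag (chr5:150234212-150234271, plus strand): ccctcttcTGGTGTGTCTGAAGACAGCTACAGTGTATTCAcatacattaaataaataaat
Zfp408 read 16.37, 16.19, 16.18 and 16.30 on AdLeXis arrays, against 16.52, 16.52, 16.61 and 16.54 on AdGFP arrays. The difference was -0.29 ± 0.078 (SE), adjusted p = 0.0375, and that of the Medag probe was -0.47 ± 0.093 (SE), adjusted p = 0.0138 over all probes kept. Probes of 1700047I17Rik2 (-0.52), Pirb (-0.51), Ppm1k (-0.47), BC028528 (-0.43), Pbld1 (-0.43), Phyhd1 (-0.35) and Endov (-0.29), which also share at least 20 bases with it, fell past the threshold too. Those of Nanog (-0.36), Apopt1 (-0.17) and Milr1 (-0.10) did not pass, and that of Zfp872 was not kept. Whether the Zfp408 probe reads Zfp408 alone was not tested. With quantile scaling the Zfp408 difference was -0.069 (adjusted p = 0.62). In all, 21 of the 287 genes were read by a probe that shared at least 20 bases with a probe of another name, 2 of them called higher and 1 lower; leaving those genes out gave 42 higher and 8 lower of 266, with a median of 0.15.

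For 173 of the 287 genes a single probe passed the filter, and for the other 114 there were up to 5. The kept probes of 43 genes differed in the sign of the difference, and those of Zfp318 and Zfp628 passed the test in opposite directions. Zfp318 is a nuclear protein that B cells need for the long transcripts that encode IgD. Its 4 probes lie on the plus strand of chromosome 17 and are printed in genomic order (mm9), since the first 2 rose and the last 2 fell:
Zfp318 probe 1 (chr17:46550257-46550316): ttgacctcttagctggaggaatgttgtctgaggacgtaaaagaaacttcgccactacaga
Zfp318 probe 2 (chr17:46551614-46551673): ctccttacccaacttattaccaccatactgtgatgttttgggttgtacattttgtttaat
Zfp318 probe 3 (chr17:46557427-46557486): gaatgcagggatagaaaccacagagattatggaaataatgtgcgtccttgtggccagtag
Zfp318 probe 4 (chr17:46557544-46557603): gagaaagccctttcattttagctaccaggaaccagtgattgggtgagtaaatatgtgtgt

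Probe 1 of Zfp318 read 9.58, 9.57, 9.72 and 9.40 on AdLeXis arrays, against 9.17, 9.31, 9.26 and 9.13 on AdGFP arrays. Probe 2, the brightest and therefore the one that represents the gene, read 9.98, 10.11, 10.38 and 10.18 on AdLeXis arrays, against 9.46, 9.78, 9.68 and 9.72 on AdGFP arrays. Both rose without overlap, by 0.35 ± 0.094 (SE), adjusted p = 0.0422 for probe 1 and 0.51 ± 0.11 (SE), adjusted p = 0.0229 for probe 2, adjusted here over all probes kept. Probe 3 read 5.55, 4.996, 5.71 and 5.20 on AdLeXis arrays, against 6.45, 6.85, 6.96 and 6.58 on AdGFP arrays. Probe 4 read 6.59, 6.06, 6.77 and 6.19 on AdLeXis arrays, against 7.71, 8.02, 7.82 and 7.98 on AdGFP arrays. Both fell by more than 1 unit, with differences of -1.35 ± 0.18 (SE), adjusted p = 0.00342 for probe 3 and -1.48 ± 0.17 (SE), adjusted p = 0.00172 for probe 4. The mean over the 4 probes was lower in AdLeXis (-0.49, adjusted p = 0.0272), so the count of Zfp318 among the genes that rose rests on the choice of probe. Of the 15 T and NK cell markers given above 13 fell, and 1 stood above 0 (0.73, not called). All 7 measured B cell markers had differences below 0, with a median of -0.26. Of these 7, 1 passed the test (14.3%, beside 8.79% lower over all genes). Their group means overlapped, at 4.81 to 5.59 on AdLeXis arrays and 5.41 to 5.72 on AdGFP arrays. The part of lymphocyte markers in the result for Zfp318 was not tested.

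Zfp628 had 2 probes on the plus strand of chromosome 7 in mm9, the first of 86.7% G and C and the second of 53.3%:
Zfp628 probe 1 (chr7:4871046-4871105): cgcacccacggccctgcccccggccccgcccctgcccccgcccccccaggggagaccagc
Zfp628 probe 2 (chr7:4873434-4873493): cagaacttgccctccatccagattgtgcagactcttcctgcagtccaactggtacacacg
Probe 1 read 17.74, 17.40, 17.52 and 17.42 on AdLeXis arrays, against 17.92, 17.85, 17.96 and 17.97 on AdGFP arrays, and represents the gene by its brightness. Probe 2 read 9.16, 9.21, 9.53 and 9.48 on AdLeXis arrays, against 8.71, 8.85, 8.94 and 9.08 on AdGFP arrays. The first fell by 0.40 ± 0.098 (SE) and the second rose by 0.45 ± 0.12 (SE). Their mean did not differ past the threshold (0.022, adjusted p = 0.891), and the fall of probe 1 was not called with quantile scaling (-0.0047, adjusted p = 0.979). Leaving out the 43 genes with probes of both signs gave 42 higher and 8 lower of 244, with a median of 0.16.

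**Figure D4:**
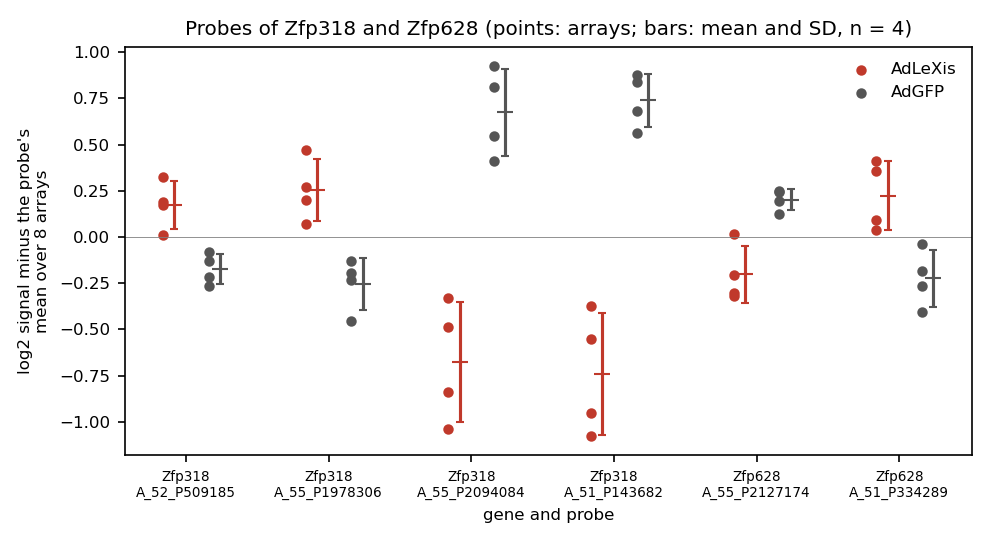
Log2 signal of each kept probe of Zfp318 and Zfp628, centred on the probe's mean over 8 arrays, on the 4 AdLeXis and the 4 AdGFP arrays (points), with mean and SD (bars, n = 4). For each gene the probes are in genomic order: the first 2 of Zfp318 stood 0.35 and 0.51 higher in AdLeXis and the last 2 stood 1.35 and 1.48 lower, and the first of Zfp628 stood 0.40 lower and the second 0.45 higher.

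Of 46 Zfp genes listed for a known role, 40 were detected; 6 rose (Zfp318 and the 5 below), 2 fell (Zfp36 and Zfp57) and 32 did not pass the test. These shares, 15% and 5%, lie near those of all 287 Zfp genes (15.3% and 3.14%), beside 8.75% and 8.79% over all genes. Among the repressors of retroviral sequence, Zfp809, which in mouse stem cells recruits Trim28 to the primer binding site of murine leukaemia virus, read 9.99, 10.12, 9.70 and 9.99 on AdLeXis arrays, against 9.38, 9.52, 9.42 and 9.54 on AdGFP arrays. The 2 groups of arrays did not overlap (difference 0.49 ± 0.10 (SE), adjusted p = 0.0161), and the call was lost with array-median scaling (adjusted p = 0.0663). Zfp932, a KRAB zinc finger gene that represses endogenous retroviruses of the ERVK class, differed by 0.15 ± 0.11 (SE), adjusted p = 0.391, with overlapping groups.

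Of the transcription factors, Zfp410, which activates the gene of the NuRD remodeller Chd4, read 9.54, 9.66, 9.71 and 9.98 on AdLeXis arrays, against 9.14, 9.24, 9.24 and 9.26 on AdGFP arrays. Its groups were separated, with a difference of 0.50 ± 0.10 (SE), adjusted p = 0.0141; with array-median scaling it stood just outside the threshold (adjusted p = 0.0512). Chd4 itself was 13.40 ± 0.031 on AdLeXis arrays and 13.13 ± 0.13 on AdGFP arrays (SD, n = 4 each), a difference of 0.27 ± 0.086 (SE), adjusted p = 0.0654. Zfp703, a transcriptional corepressor whose human gene is amplified in breast cancer, read 11.83, 11.91, 11.86 and 11.95 on AdLeXis arrays, against 11.24, 11.54, 11.42 and 11.60 on AdGFP arrays. Its arrays did not overlap (difference 0.44 ± 0.096 (SE), adjusted p = 0.0175), and it was not called with array-median scaling (adjusted p = 0.0664). Zfp131, a BTB domain factor, differed by 0.44 ± 0.095 (SE), adjusted p = 0.0168, and was likewise lost with array-median scaling (0.0798). Its probe is placed on chr13_random of build mm9, a sequence without a set place on the chromosome. The strand given there is opposite to that of its RefSeq entry in GRCm38.p6, as for 1 other gene of the 243 with an entry. The builds may orient such a sequence differently, so the strand that the Zfp131 probe reads is not settled. Without AdLeXis replicate 4, Zfp703, Zfp131 and Zfp318 missed the threshold (adjusted p = 0.0527, 0.0514 and 0.0519), and under normexp with quantile scaling so did Zfp703 (0.125) and Zfp318 (0.119). With that setting the difference of Zfp410 was 0.32 and that of Zfp318 0.29. The widely expressed factors Zfp143, Zfp148 and Zfp281 were not called, with differences of 0.090, 0.15 and -0.28. Zfp407 had the largest difference among the genes with a listed role that were not called (0.45 ± 0.14 (SE), adjusted p = 0.0533), and passed the test with quantile scaling (adjusted p = 0.0475).

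Among the genes that act on RNA or ribosomes, Zfp326, a subunit of a complex that links splicing with elongation, rose by 0.28 ± 0.067 (SE), adjusted p = 0.0248; 11 of the 19 alternatives ended this call, array-median scaling among them (adjusted p = 0.197). Zfp598, the ubiquitin ligase that senses collided ribosomes, differed by 0.16 ± 0.11 (SE), adjusted p = 0.384. Zfp622, a factor of large ribosomal subunit maturation, read 13.73, 13.90, 13.86 and 13.75 on AdLeXis arrays, against 13.79, 13.75, 13.72 and 13.79 on AdGFP arrays, groups that overlapped closely. Zfp346, which binds double-stranded RNA, differed by 0.21 ± 0.12 (SE), adjusted p = 0.246. None of these 3 passed the test. Nor did Zfp746 (PARIS, a repressor of the PGC-1α gene, 0.078), Zfp423 (a factor of preadipocyte commitment, -0.23), Zfp451 (a SUMO ligase, 0.25), Zfp207 (a kinetochore protein, -0.044) or Zfp259, now Zpr1 (-0.042). The mean over all kept probes of a gene gave 0.50 for Zfp423 (limma adjusted p = 0.0209) and 0.25 for Zfp207 (limma adjusted p = 0.504). The 32 genes not called ran from -0.28 to 0.45, with 21 above 0 and 11 below. Zfp791 on chromosome 8, 1 of the 4 genes of highest mean signal, read 12.93, 13.88, 13.80 and 12.77 on AdLeXis arrays, against 14.19, 14.13, 14.52 and 13.99 on AdGFP arrays. It did not pass the test: all its AdLeXis arrays lay lower, but replicates 1 and 4 stood about 1 unit under replicates 2 and 3 (difference -0.86 ± 0.27 (SE), adjusted p = 0.0604).

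By chromosome, the genes were unevenly spread: 77 of the 287 lay on chromosome 7, 35 on chromosome 17, 26 on 13, 21 on 8 and 16 on 9. On chromosome 17, 10 rose and 1 (Zfp57) fell, with a median of 0.30, beside 8.81% higher and 10.4% lower and a median of -0.0021 for the other genes of that chromosome. On chromosome 9, 6 of 16 rose and 0 fell, with a median of 0.23, beside 8.46% higher and 8.62% lower for its other genes. On chromosome 7, 10 rose and 4 fell, with a median of 0.094, beside 9.01% and 9.30% for its other genes. On chromosome 8, 5 rose and 1 fell, beside 8.44% and 7.02% for its other genes, with Zfp276 the largest rise there (difference 0.53 ± 0.097 (SE), adjusted p = 0.0088; adjusted p = 0.122 under normexp with quantile scaling).

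Chromosome 13 held 2 genes that rose and 0 that fell among 26, with a median of 0.023, beside 7.74% and 8.27% for its other genes. Chromosome 6 held 0 called among 13, beside 7.53% higher and 9.78% lower for its other genes. Chromosomes 5, 11, 2 and 4 held 11 to 15 detected Zfp genes each and 1 that rose each, and chromosome 2 also held 1 that fell. Their largest rises were Zfp326, Zfp454 (0.35), Zfp770 (0.50) and Zfp189. Of their other genes, 9.08% rose and 8.59% fell on chromosome 5, and 9.90% and 9.61% on chromosome 11. The shares were 8.44% and 9.06% on chromosome 2, and 9.14% and 7.04% on chromosome 4. The 6.67% to 9.09% of Zfp genes that rose on these chromosomes lie near those shares. Normexp with quantile scaling ended the calls of Zfp770 (adjusted p = 0.114) and Zfp454 (0.506), and leaving out 1 array, AdGFP replicate 1 among others, ended that of Zfp454 (0.0837). Of the chromosomes with fewer than 10 detected Zfp genes, chromosome 15 was picked after its values were seen. It held 9, of which 4 rose, Zfp647 and Zfp41 among them, and 0 fell, beside 8.46% and 8.25% for its other genes. Chromosome 18 held 0 called of 7, and chromosome 14 held 0 that rose and 1 that fell of 5. Chromosomes 10, 1 and 16 held 0 called of 4 each. Chromosomes 12 and 3 held 1 that rose of 4 each, and chromosome 3 also 1 that fell. These small counts can be read beside 8.75% higher and 8.79% lower over all genes. With array-median scaling 1 gene was called higher on chromosome 17 and 1 lower, 2 and 0 on chromosome 9, and 5 and 4 on chromosome 7. The balance turned on chromosome 8, with 1 higher and 2 lower under array-median scaling and 1 higher and 3 lower under normexp with quantile scaling. It also turned on chromosome 13, with 1 higher and 3 lower under array-median scaling. That scaling lowers the differences of genes alike, so its direction of change was fixed in advance. Under normexp with quantile scaling 2 were higher on chromosome 9. Leaving out single arrays gave 2 to 8 on chromosome 17, 2 to 6 on chromosome 9 and 6 to 8 on chromosome 7, and fewest each time without AdLeXis replicate 4 (2 on chromosome 17, 2 on 9 and 6 on 7), with 2 on chromosome 9 also without AdLeXis replicate 2. The differences between chromosomes were not tested.

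**Figure D5:**
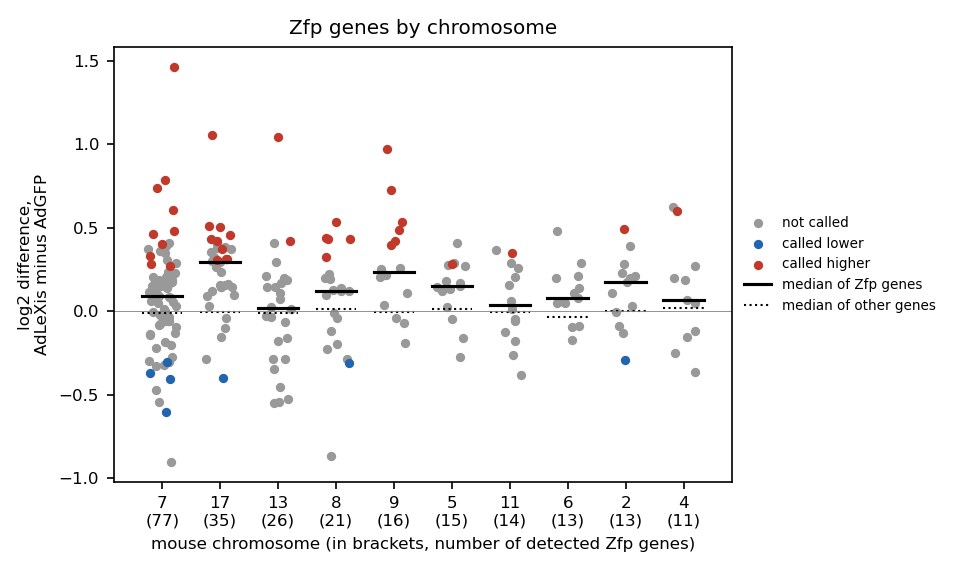
Log2 difference (AdLeXis minus AdGFP) of each detected Zfp gene on the 10 chromosomes with at least 10 of them, coloured by call, with the median of the Zfp genes (solid line) and of the other genes of that chromosome (dotted line). The median of the Zfp genes is 0.30 on chromosome 17, 0.23 on chromosome 9 and 0.023 on chromosome 13.

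Neighbouring Zfp genes, joined where probes lay within 500000 bases of each other, formed 17 clusters of at least 4 detected genes with 139 genes in all. The largest, with 19 genes, spanned chr17:21165104-23713036 (mm9); 6 rose, 0 fell, 16 were above 0 and the median was 0.31. It holds Zfp13, and its other 5 called genes (Zfp760, Zfp943, Zfp947, Zfp40 and Zfp213) are named because of their place in the cluster, after their values were seen. A cluster of 17 on chr13:67139715-67927746 held Zfp273 as its 1 gene that rose, with 9 of 17 above 0 and a median of 0.018. A cluster of 14 on chr7:30566378-30946346 held 0 that rose and 1 that fell (Zfp566), with a median of 0.072. On chromosome 9, 3 of 5 genes rose in chr9:20149988-20398425, which holds Zfp846, and 3 of 4 in chr9:21859904-22081560, which holds Zfp809 and Zfp599. Both were picked after their values were seen. Of larger clusters, chr7:134381189-135029250 held 4 that rose of 10. In chr17:32910629-33768635, 1 of 10 rose. In chr7:24892175-25295771, 1 of 10 rose and 1 fell, and in chr6:47769288-48377858, 0 of 9 were called. Over all genes tested 8.75% rose and 8.79% fell. Within a cluster, 1 pair of genes, Zfp108 and Zfp114 on chromosome 7, was read by probes that shared a run of at least 20 bases. The other 2 such pairs among the 287 genes lay on different chromosomes.

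Promoter sequence, from 250 bases before to 50 bases after the annotated start, was held in RefSeq tables of build GRCm38.p6 for 243 of the 287 genes, 29 of those that rose, 8 of those that fell and 206 of those not called. Each was searched on both strands for 10 short motifs, and a match describes letters in the window only. The cAMP response element TGACGTCA was present in 5 of 29 genes that rose, 0 of 8 that fell and 6 of 206 not called, and in 1.79% of all 32851 promoters. Counted by promoter, since a gene can have several, it was in 17.1% of 41, 0% of 10 and 2.46% of 244 promoters. This element was picked for printing after the counts of the 10 motifs were seen, and no difference between the sets was tested. The 5 genes are Zfp473, Zfp426, Zfp266, Zfp523 and Zfp367, the last 4 named after their values were seen. A stretch of 48 bases around the match in each is printed 5′ to 3′ on the gene's strand, with the element in capitals:
Zfp473 (chr7:44748367-44748414, minus strand): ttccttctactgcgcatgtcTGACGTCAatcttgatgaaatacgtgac
Zfp426 (chr9:20492741-20492788, minus strand): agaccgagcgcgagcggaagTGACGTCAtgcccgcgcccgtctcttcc
Zfp266 (chr9:20521409-20521456, minus strand): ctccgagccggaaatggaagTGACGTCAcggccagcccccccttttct
Zfp523 (chr17:28177114-28177161, plus strand): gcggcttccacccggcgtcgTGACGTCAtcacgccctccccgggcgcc
Zfp367 (chr13:64152451-64152498, minus strand): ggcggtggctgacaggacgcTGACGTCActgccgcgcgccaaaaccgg

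The matches began 17 to 105 bases before the start, at -45 in Zfp473, -22 in Zfp426, -17 in Zfp266, -62 in Zfp523 and -105 in Zfp367. Their log2 differences were 1.47, 0.42, 0.53, 0.31 and 0.42. The GC box GGGCGG was in 58.5% of the 41 promoters of genes that rose and 30.0% (3) of the 10 of those that fell. It was in 44.7% of the 244 promoters of genes not called, against 35.7% of all promoters. The TATA box TATAAA was in 2.44%, 10.0% (1 promoter) and 6.56%, against 13.6% of all. The ETS motif CCGGAAG was in 19.5%, 20% and 21.3%, against 8.86% of all, and the median number of CG pairs was 20, 15 and 14, against 7 in all promoters. The other motifs searched were GCGCA followed at once by TGCGC (NRF1), AAGATGGCG (YY1), CACGTG (E box), ACTACAA (ZNF143), CCAAT, and TTTGGCGC, TTTCCCGC or TTTCGCGC (E2F). In the same order, E2F was in 9.76% (4 promoters), 10.0% (1 promoter) and 3.28%, against 1.84% of all. ZNF143 was in 9.76% (4 promoters), 10.0% (1 promoter) and 6.56%, against 3.24%. NRF1 was in 2.44%, 0% and 3.28%, against 0.971%, and YY1 in 0%, 0% and 3.69%, against 1.4%. The E box was in 7.32%, 0% and 6.97%, against 7.15%, and CCAAT in 39.02%, 20% and 45.1%, against 37.4%. The 3 E2F spellings counted as 1 motif, and a base could belong to more than 1 motif.

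The corepressor through which KRAB zinc finger proteins act was read from a list of 33 genes of Trim28 and heterochromatin machinery, of which 32 were measured. There were 4 that rose, 2 that fell and 26 that did not pass, with a median of 0.13 and 20 above 0. These shares of 12.5% and 6.25% lie near the 8.75% and 8.79% over all genes. Trim28 itself read 11.56, 11.67, 11.64 and 11.66 on AdLeXis arrays, against 11.17, 11.34, 11.43 and 11.41 on AdGFP arrays. The groups did not overlap and the difference was 0.30 ± 0.085 (SE), adjusted p = 0.0459; 13 of 19 alternatives ended the call, among them array-median scaling (0.21, adjusted p = 0.204). Setdb1, the H3K9 methyltransferase recruited by Trim28, read 8.41, 8.82, 8.69 and 8.75 on AdLeXis arrays, against 8.60, 8.35, 11.55 and 8.43 on AdGFP arrays. AdGFP replicate 3 stood far above every other array, and the difference was -0.56 ± 0.66 (SE), adjusted p = 0.609, or 0.21 without that array (adjusted p = 0.322).

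Atf7ip, the partner that stabilises Setdb1, rose by 0.35 ± 0.092 (SE), adjusted p = 0.0336. Hells, a chromatin remodeller, rose by 0.91 ± 0.25 (SE), adjusted p = 0.0404, and Dnmt1, the maintenance DNA methyltransferase, by 0.35 ± 0.10 (SE), adjusted p = 0.0456. Cell cycle genes moved in the same samples, as given above, and their part in these rises was not tested. Daxx, a histone chaperone, differed by -0.33 ± 0.092 (SE), adjusted p = 0.0407. Ehmt1, an H3K9 methyltransferase, read 12.89, 13.86, 13.66 and 12.84 on AdLeXis arrays, against 14.14, 14.003, 14.28 and 14.06 on AdGFP arrays, with a difference of -0.81 ± 0.24 (SE), adjusted p = 0.049, while its other kept probe differed by 0.063. Suv39h2 read 14.11, 14.93, 14.77 and 14.02 on AdLeXis arrays, against 15.11, 14.94, 15.33 and 14.84 on AdGFP arrays and was not called (-0.60 ± 0.22 (SE), adjusted p = 0.105). In both genes AdLeXis replicates 1 and 4 were lower than replicates 2 and 3, the same order of arrays as in Zfp791. Normexp with quantile scaling gave 0.12 for Trim28, 0.14 for Atf7ip, 0.46 for Hells, 0.17 for Dnmt1 and -0.50 for Ehmt1, each more than 1.5 times smaller. Array-median scaling ended the 4 rises and neither of the 2 falls. It lowers the differences of genes alike, so this direction was fixed in advance and says nothing about these genes. At least 1 choice of array left out ended each of the 6 calls.

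Other zinc finger families were counted by name in the same way. Of 39 Zbtb genes, whose proteins pair zinc fingers with a BTB domain, 4 rose, 1 fell and the median was 0.093. Zbtb48, which binds telomeres, differed by 0.68 ± 0.089 (SE), adjusted p = 0.00252, and Zbtb32, a factor of lymphocytes, by -0.90 ± 0.13 (SE), adjusted p = 0.0032. Of 19 Zscan and Zkscan genes 2 rose and 1 fell, with a median of 0.14. Of 21 Zfp names with a letter after the number, which the rule leaves out, 4 rose and 0 fell, with a median of 0.21. Of 14 Zc3h genes, which encode CCCH-type fingers that bind RNA, 3 rose and 0 fell, with a median of 0.010. Of 15 Klf genes 0 rose and 2 fell, with a median of 0.046; Klf6 differed by -0.56 ± 0.083 (SE), adjusted p = 0.00387. These counts can be read beside 8.75% higher and 8.79% lower over all genes, and the families were not tested against one another. The genes named here were chosen after their values were seen.

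Detection set the edge of the group. Just inside it by their lowest array, Zfp560 read 3.05 to 3.76 and Zfp697 read 3.10 to 4.35 over the 8 arrays. Just outside it, detected on 7 arrays, Zfp958 read 2.75 to 5.12 and Zfp9 read 3.54 to 4.79. For both, the array that missed detection was an AdGFP array. The 12 names tested but left out held 1 gene called higher (Zfp958) and 0 called lower.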

How the data were processed

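Per the file headers, the authors extracted the arrays with Agilent Feature Extraction 11.5.1.1, which left a linear spot intensity corrected for background and for spatial trend on each array separately. The value table they deposited is identical to it. The flag columns (0 or 1) for background and for outlier spots were read as deposited, and probe positions are in mm9 per the file headers.

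The log2 of the deposited intensity was shifted so that all arrays share a 75th percentile. Controls and spots marked as outliers (127 to 256 on an array) were dropped, replicate spots were averaged, and a probe stayed if flagged well above background on 4 or more arrays and read on 2 or more of either group, which kept 34440 probes. Each gene is its kept probe of highest mean, which gave 23925 genes. Groups were compared with limma 3.58.1 (lmFit, eBayes; R 4.3.3), two-sided, with Benjamini-Hochberg adjustment over all genes; the fit was tested on simulated data. The precision is limited by 4 arrays a group. Samples with the same replicate number, which shared a slide column, deviated together only weakly (correlations of 0.0012 to 0.116). The numbers were therefore not used as a block in the main setting. With the block, 25 Zfp genes were higher and 6 lower, against 44 and 9 without it. Names are those in the files; RefSeq tables of GRCm38.p6 gave current names, which differ for 3 genes, and promoters. Protein sequences were not used here.

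The members and lists were chosen with earlier results of these data known. Genes are named by rule: the 12 largest rises and falls that were called and did not overlap, the 4 brightest, a list of genes with known roles, the largest called rise and fall of each chromosome with at least 10 members, the 2 nearest each side of the detection limit, the corepressor genes of smallest p with Trim28 and Setdb1, and genes with probes called in opposite directions. Of the falls that did not overlap there were 8. Alternatives tried were 4 other scalings or backgrounds, other filters, probe means, updated names, other variance models, the replicate block and each array left out; 2 more, on genes with shared probes or probes of both signs, were added after the data were seen.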

Additional observations from a re-analysis of the deposited data

Results flagged for a closer look

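In 5 of 150 groups of 4 arrays checked among the genes named here, 1 array stood far from the other 3 for the size of the group's range; chance alone does so in about 1 group in 20. Setdb1 read 11.55 on AdGFP replicate 3, against 8.35 to 8.60 on the other AdGFP arrays. Zfp148 read 10.65 on AdGFP replicate 4, against 10.32 to 10.37 on the others. Zfp410 read 9.14 on AdGFP replicate 1, against 9.24 to 9.26. Zfp644 read 8.59 on AdLeXis replicate 1, against 9.06 to 9.11 on the other AdLeXis arrays. Zfp958 read 2.75 on AdGFP replicate 4, against 3.62 to 3.76 on the other AdGFP arrays.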

How the results depend on the processing

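Array-median scaling gave 16 higher and 14 lower Zfp genes, a median of 0.062, and 1155 of all genes higher and 2677 lower. Normexp with quantile scaling gave a median of 0.059, no filter on dim probes 28 higher and 1 lower, and the replicate block 25 higher. The block, which is also a block of slide column, moved the count over all genes to 1520 higher and 1624 lower. Correlations between arrays of the same number were weak (0.0012 to 0.116), and 2 of 4 AdLeXis arrays correlated best with their own number. With single arrays left out, 21 to 41 Zfp genes were higher, fewest without AdLeXis replicate 4 and 24 without AdLeXis replicate 2, and 1 to 8 were lower, with 1 without AdGFP replicate 4 and 2 without AdGFP replicate 2; over all genes 1244 to 2083 were higher and 1273 to 2033 lower. Of the 44 rises, 10 held under all 19 alternatives, 12 under all 4 scalings and 18 with any array left out; of the 9 falls, 1, 4 and 1 did. The sign held throughout for 42 of the 44 rises and 8 of the 9 falls. Zfp318 was among the rises that changed sign, though not the only one, and Zfp628 was the fall that did. Sign changed with array-median scaling for Zfp110 (-0.0015), Zfp263 (-0.070), Zfp292 (-0.034), Zfp369 (-0.010), Zfp622 (-0.034), Zfp64 (-0.052) and Zfp746 (-0.0051), with normexp and quantile scaling for Zfp110 (-0.079), Zfp143 (-0.078), Zfp263 (-0.041), Zfp292 (-0.031), Zfp622 (-0.095), Zfp687 (-0.026) and Zfp746 (-0.093), and with probe means for Zfp148 (-0.0093), Zfp207 (0.25), Zfp318 (-0.49), Zfp423 (0.50), Zfp628 (0.022) and Zfp64 (-0.092). With arrays left out, differences crossed 0 for Zfp292 (-0.12 to 0.23), Zfp369 (-0.017 to 0.13), Zfp64 (-0.012 to 0.063), Zfp263 (-0.021 to 0.049), Zfp207 (-0.095 to 0.011), Zfp259 (-0.11 to 0.037), Zfp423 (-0.43 to 0.040), Zfp9 (-0.046 to 0.37) and Setdb1 (-0.86 to 0.21). The cause was not tested. The number of arrays and the signal over background limit the dimmest genes.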
